A study of Mus musculus with 12 samples.

Results

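Ier2, Ier3 and Ier5 are named immediate early response genes, and their mRNA was measured at 1 h in bone marrow derived macrophages (BMDM) of Balb/c mice. They were taken by gene symbol from the platform's probe-to-gene table, and each had 1 probe (ILMN_2642705 for Ier2, ILMN_1216764 for Ier3 and ILMN_2642275 for Ier5), so that they are 3 of 16593 named genes and 3 of 25697 probes on the Illumina MouseRef-8 v2.0 array. The study asked how human β-defensin 3 (hBD3), a cationic host defence peptide of epithelia, changes the early response of macrophages to bacterial lipopolysaccharide (LPS), the ligand of TLR4. There were 4 groups with 3 arrays each. BMDM were given LPS plus hBD3, LPS alone (50 ng/mL), hBD3 alone (5 μg/mL in the study's methods, where the sample label has the unit mg/ml) or no treatment. The labels of the combination give no dose. All 12 cultures were grown from bone marrow in M-CSF, kept without it before treatment and harvested after 1 h, and the design note gives 3 separate mice for every group.

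Immediate early genes are transcribed within minutes of a stimulus because the factors that switch them on are already present in the resting cell, and many of their transcripts are short-lived. In macrophages LPS reaches them through TLR4, NF-κB and the MAP kinases. Ier2, Ier5 and Ier5l (Ier5-like) encode related nuclear proteins that share an N-terminal domain, whereas Ier3, also called IEX-1, shares their timing but not this domain. The IER3 protein acts on ERK signalling and on cell survival and is an NF-κB target, IER5 binds the phosphatase PP2A and the heat shock factor HSF1, and IER2 is a nuclear protein first found as a serum-induced transcript.

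The start regions of Ier3 and Ier5 are shown because Ier3 changed with treatment while the Ier5 probe was not detected on any array. They come from RefSeq's annotation of the mouse build GRCm38.p6 and run from 250 bases before to 50 bases after the annotated gene start. Ier3 lies on chromosome 17, plus strand, at chr17:35821463-35821762, and Ier5 on chromosome 1, minus strand, at chr1:155099587-155099886. Ier3, Ier5 and Ier5l, 3 of the 4 genes named above, had an entry in the table. Capitals mark in Ier3 a κB motif, an NF-κB consensus match read on the other strand and a TATA box, and in Ier5 a pair of CCAAT boxes read on the other strand and a TATA box.
Ier3: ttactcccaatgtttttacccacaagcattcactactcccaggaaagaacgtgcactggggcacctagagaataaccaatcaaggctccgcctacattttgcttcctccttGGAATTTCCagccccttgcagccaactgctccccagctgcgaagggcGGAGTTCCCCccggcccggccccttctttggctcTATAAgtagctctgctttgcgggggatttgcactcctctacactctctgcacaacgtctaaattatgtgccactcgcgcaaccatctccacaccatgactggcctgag
Ier5: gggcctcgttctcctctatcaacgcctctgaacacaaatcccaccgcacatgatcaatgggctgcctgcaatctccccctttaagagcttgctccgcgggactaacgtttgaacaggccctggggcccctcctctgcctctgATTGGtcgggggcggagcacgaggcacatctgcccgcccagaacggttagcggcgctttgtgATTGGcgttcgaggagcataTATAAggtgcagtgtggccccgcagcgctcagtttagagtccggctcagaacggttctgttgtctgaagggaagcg

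The Ier3 window held the symmetric κB sequence GGAATTTCC at positions -139 to -131 from the gene start, which is counted as position 1. This sequence was present, on either strand, in 104 of 32851 RefSeq promoter windows of the same length, which is 0.317%. The looser NF-κB consensus matched at positions -92 to -83 and was found in 8.46% of all windows. A TATAA match stood at -58 to -54 in Ier3 and at -26 to -22 in Ier5, against 24.9% of windows with this motif. The Ier5 window held no κB match, and its CCAAT boxes stood at -108 to -104 and at -46 to -42 (CCAAT is in 37.4% of windows, and Ier3 also has 2, at -244 to -240 and at -175 to -171). In neither window did a cAMP response element (TGACGTCA), an AP-1 site (TGANTCA), an EGR site (GCGNGGGCG), a CArG box or a heat shock element match on either strand. Their shares over all windows were 1.79% for TGACGTCA, 7.81% for TGANTCA, 5.55% for GCGNGGGCG, 1.63% for the CArG box and 0.603% for the heat shock element. The motifs marked in capitals were chosen in part after the sequences had been seen, and a match describes the letters only.

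On each array 8958 to 9923 probes were detected, which means a BeadStudio detection p (the share of negative control probes at least as bright) under 0.01. Macrophage markers were present in all groups: 5 of 5 measured markers, of 8 listed, were detected on all 12 arrays, with summed signals of 29862 to 32380 with LPS plus hBD3, 30957 to 33113 with LPS, 28433 to 32165 with hBD3 and 29514 to 33152 in untreated cells. None of 6 lymphocyte and none of 5 dendritic cell markers was detected on any array, and the same held for 6 of 7 granulocyte and 5 of 7 stromal and erythroid markers. The remaining granulocyte marker, 1 of 7, was detected on all 12 arrays. The remaining stromal and erythroid markers were detected on some arrays but not on all, and a Col1a1 probe was detected on 6. No marker of any list passed the test in any comparison, where at most 0.105% of all probes passed. LPS replicate 1 stood apart from its group: its mean correlation with the other LPS arrays was 0.967, against 0.983 and 0.979 for LPS replicates 2 and 3 and 0.987 to 0.992 on the arrays of other groups.

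Ier3 was the only member detected on any array, and its signal differed between treatments. LPS raised it 5.56-fold within the hour, and cells given LPS plus hBD3 had 3.01-fold less Ier3 signal than cells given LPS alone. The Ier3 probe was detected on 12 of 12 arrays with a detection p of 0. Its signal as deposited, in BeadStudio units and not normalized between arrays, was 684, 412 and 594 with LPS plus hBD3, 3221, 1907 and 1865 with LPS, 449, 263 and 427 with hBD3, and 468, 329 and 319 in untreated cells (replicates 1, 2 and 3). Every LPS array was above every array of the other groups. In these RNA samples of whole cultures, fewer responding cells and less Ier3 RNA per cell cannot be told apart.

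After quantile normalization the Ier3 signal on the log2 scale was 9.36, 9.48 and 9.42 with LPS plus hBD3 (mean 9.42 ± 0.06), 11.17, 11.09 and 10.77 with LPS (11.01 ± 0.21), 8.81, 8.55 and 8.15 with hBD3 (8.51 ± 0.33), and 8.53, 8.69 and 8.38 in untreated cells (8.53 ± 0.16; SD, n = 3 each). The order of the means was LPS, LPS plus hBD3, untreated and hBD3. The first 3 groups of this order did not overlap, and the last 2 overlapped and differed by less than their spread. The arrays with both agents had the smallest spread of the 4 groups and those with hBD3 alone the widest.

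**Figure D1:**
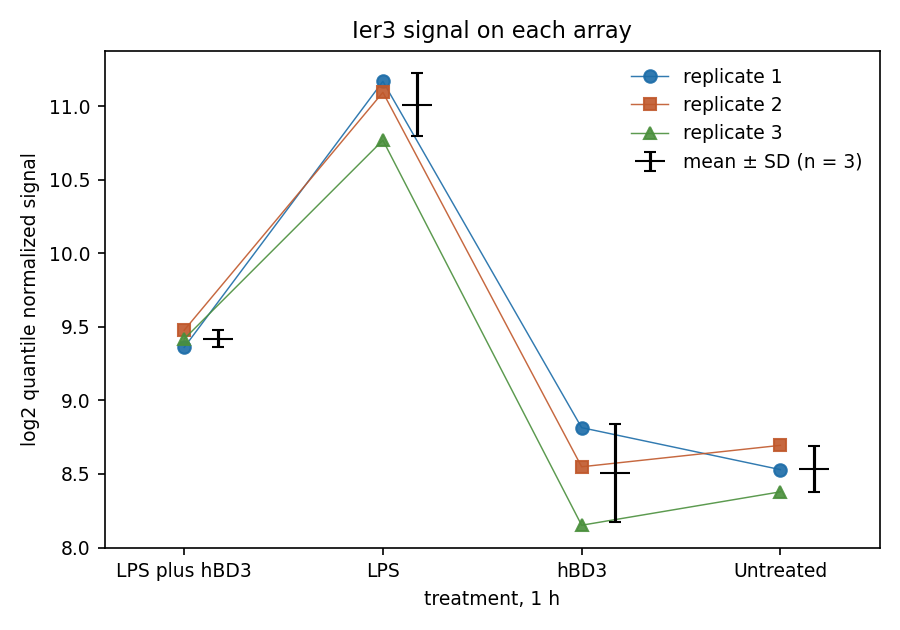
Ier3 log2 quantile normalized signal (y axis) on each of the 12 arrays by treatment (x axis), with arrays of equal replicate number joined by a line and the mean ± SD of 3 arrays in black. The LPS plus hBD3 arrays sit between 9.36 and 9.48, below all LPS arrays (10.77 to 11.17) and above all hBD3 and untreated arrays (8.15 to 8.81).

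In LPS against untreated cells, the log FC of Ier3 (difference of log2 signals) was 2.48 ± 0.16 (SE; 95% interval 2.13 to 2.82; limma, adjusted p = 7.45e-05 over all probes). Of the 3 members 1 passed the test as higher, where 0.105% of all probes did (27 of 25697, with 0 lower). All LPS arrays were above all untreated arrays for Ier3, as for 4.34% of probes. Ier3 ranked 3 among the 25697 probes by p-value and 11 by log FC. The difference was alike at each replicate number, at 2.64, 2.40 and 2.39 for replicates 1, 2 and 3.

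For LPS plus hBD3 against LPS, the log FC of Ier3 was -1.59 ± 0.16 (SE; 95% interval -1.94 to -1.24; limma, adjusted p = 0.00527). Ier3 was the 1 member of 3 that passed the test as lower, beside 0.0545% of all probes (14, with 0 higher). The LPS plus hBD3 arrays were all below the LPS arrays for Ier3, as for 4.39% of probes. By p-value it again ranked 3 of all probes, and 17 by how low its log FC was. The difference was -1.81, -1.62 and -1.35 at replicate numbers 1, 2 and 3. When only these 2 groups were fitted, the same log FC had an adjusted p of 0.0762. Both comparisons above use the same LPS arrays.

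In LPS plus hBD3 against untreated cells, Ier3 was 1.85-fold higher, a log FC of 0.88 ± 0.16 (SE; 95% interval 0.54 to 1.23) that did not pass the test over all probes (limma, unadjusted p = 0.000168, adjusted p = 0.9999, and 0.101 with the replicate number as a block). No probe passed in this comparison, and 636 (2.47%) had an unadjusted p under 0.05. The normalized LPS plus hBD3 arrays were all above the untreated arrays, which was so for 3.75% of probes. The signals as deposited overlapped between these groups (412 to 684 with LPS plus hBD3, 319 to 468 in untreated cells). By replicate number the differences were 0.83, 0.78 and 1.04. Expressed as a share of the log FC with LPS, 35.7% of the Ier3 response was left in the presence of hBD3, and 31.5%, 32.6% and 43.5% at replicate numbers 1, 2 and 3. With the signals scaled by the median of each array in place of quantile normalization, the share was 23.7%.

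hBD3 alone gave a log FC for Ier3 of -0.03 ± 0.16 against untreated cells (SE; 95% interval -0.38 to 0.32; limma, adjusted p = 0.9999). The sign was not the same at each replicate number, with differences of 0.29, -0.15 and -0.23, and the arrays overlapped. Of all probes 0 passed the test in this comparison, 613 (2.39%) had an unadjusted p under 0.05, and the arrays of 8.11% did not overlap.

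With hBD3 present in both groups, Ier3 was 1.88-fold higher with LPS plus hBD3 than with hBD3 alone (log FC 0.91 ± 0.16, SE; 95% interval 0.57 to 1.26; limma, unadjusted p = 0.000128, adjusted p = 0.823, and 0.0589 with the replicate block). After normalization the 2 groups did not overlap for Ier3, as for 5.27% of probes in this direction. The signals as deposited did overlap (412 to 684 with LPS plus hBD3, 263 to 449 with hBD3). The normalized differences at replicate numbers 1, 2 and 3 were 0.55, 0.93 and 1.27. No probe passed this comparison, and 971 (3.78%) had an unadjusted p under 0.05.

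The effect of hBD3 on Ier3 in the presence of LPS minus its effect without LPS was -1.56 ± 0.22 (SE; 95% interval -2.05 to -1.07) on the log2 scale. Across all probes the adjusted p of this difference was 0.104 (limma, unadjusted p = 2.43e-05), and with the replicate number as a block it was 0.00550. No probe passed without the block (657, or 2.56%, had an unadjusted p under 0.05), and with it 0.0778% of probes passed, all 20 of them lower.

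Ier2 was not well above background in any group. Its probe was detected on 0 of 12 arrays at a detection p under 0.01. The signal was 48.1, 49.7 and 43.6 with LPS plus hBD3, 54.4, 58.8 and 49.2 with LPS, 44.4, 41.2 and 49.1 with hBD3, and 42.5, 46.2 and 49.7 in untreated cells. The lowest signal with a detection p under 0.01 on the same arrays was 52.4 to 74.3, and Ier2 was under it on each array. The nearest was LPS replicate 2, with a signal of 58.8 beside a floor of 61.1 and a detection p of 0.0175. The other detection p-values were 0.0614 to 0.325 with LPS plus hBD3, 0.0990 and 0.150 with LPS, 0.302 to 0.352 with hBD3 and 0.0602 to 0.628 in untreated cells. The groups overlapped in each of the 5 comparisons between groups. The adjusted p was 0.9997 for LPS against untreated cells (limma, unadjusted p = 0.0850) and 0.99998 for LPS plus hBD3 against LPS (unadjusted p = 0.193). No fold change is given because the probe did not reach the detection threshold on any array.

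Ier5, the member tied to HSF1, was likewise not well above background. Its signal was 42.8, 45.8 and 41.9 with LPS plus hBD3, 48.1, 50.0 and 41.6 with LPS, 42.8, 37.4 and 51.2 with hBD3, and 42.5, 47.1 and 41.8 in untreated cells. The highest and the lowest of the 12 signals were both in the hBD3 group. Detection p-values ran between 0.113 and 0.746, and the probe was detected on 0 of 12 arrays. The adjusted p was 0.9997 for LPS against untreated cells (limma, unadjusted p = 0.611) and 0.99998 for LPS plus hBD3 against LPS (unadjusted p = 0.487). A change of Ier2 or Ier5 under the detection floor would not be reliably measurable with these probes. Nor does 1 probe for each gene show that its RNA was absent.

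**Figure D2:**
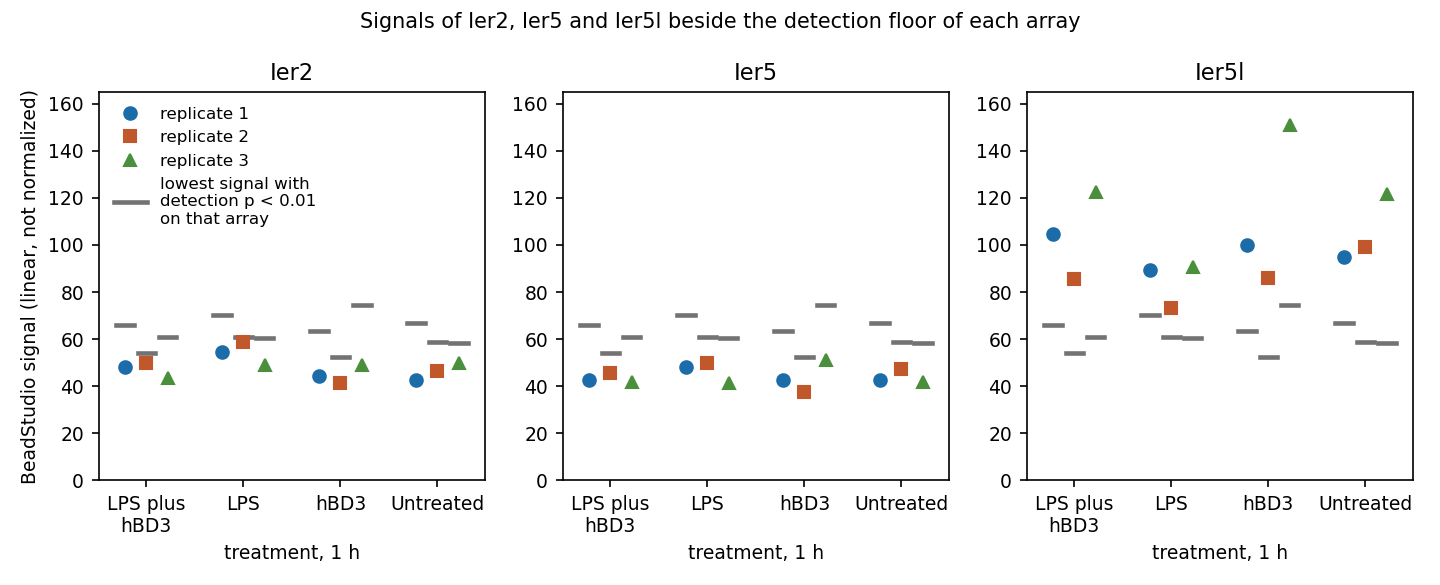
BeadStudio signal (y axis, linear, not normalized) of the Ier2, Ier5 and Ier5l probes on each array by treatment (x axis), with grey bars at the lowest signal that had a detection p under 0.01 on the same array. Ier2 (41.2 to 58.8) and Ier5 (37.4 to 51.2) lie under the bar on all 12 arrays, and Ier5l (73.3 to 151) lies above it on all 12.

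The difference in response between members was tested directly, on the log2 signal of 1 member minus that of another within each array. For Ier3 minus Ier2 it was 2.28 higher with LPS than in untreated cells and for Ier3 minus Ier5 it was 2.43 higher, with no overlap of the arrays in either case. In LPS plus hBD3 against LPS the same differences were -1.45 and -1.53, again without overlap. Each had an exact two-sided permutation p of 0.1, the smallest that 3 unpaired arrays against 3 allow (adjusted p = 0.15 over 6 tests), so this test cannot reach 0.05. The permutations did not keep arrays of equal replicate number paired. For Ier2 minus Ier5 the exact permutation p was 0.3 in both comparisons. Since Ier2 and Ier5 were not detected on any array, these differences set the change of Ier3 beside a probe without a detected signal.

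Ier5l, a relative of Ier5 that is not a member by the symbol rule, was detected on 12 of 12 arrays. Its log2 signal was 6.68, 6.94 and 7.09 with LPS plus hBD3 (mean 6.90 ± 0.21), 6.43, 6.29 and 6.46 with LPS (6.39 ± 0.09), 6.63, 6.79 and 6.71 with hBD3 (6.71 ± 0.08), and 6.30, 6.86 and 6.99 in untreated cells (6.72 ± 0.37; SD, n = 3 each). The normalized LPS plus hBD3 arrays were all above the LPS arrays, which was so for 3.5% of probes, while the signals as deposited overlapped between these groups (85.4 to 123 with LPS plus hBD3, 73.3 to 90.5 with LPS). Its log FC was 0.51 ± 0.16 in LPS plus hBD3 against LPS (SE; limma, unadjusted p = 0.00892, adjusted p = 0.99998) and -0.32 ± 0.16 in LPS against untreated cells (unadjusted p = 0.0697, adjusted p = 0.9997). Neither passed the test. At replicate numbers 1, 2 and 3 LPS plus hBD3 differed from LPS by 0.25, 0.65 and 0.63, and LPS from untreated cells by 0.13, -0.57 and -0.53, where the sign was not shared. The log FC in LPS against untreated cells was -0.52 without untreated replicate 1 and -0.19 without untreated replicate 3.

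Other immediate early genes measured with Ier3 give its surroundings. The 34 listed genes were transcription factors of the AP-1, EGR, KLF and NR4A groups, early regulators of mRNA decay and kinase signalling, and others. Ier5l, described above, is in this list and in its counts and medians. Of the 34 genes 32 had a probe, 20 were detected on all 12 arrays and 9 on none. In LPS against untreated cells 6 of 32 passed the test as higher, beside 0.105% of all probes, and 0 as lower, and 26 did not pass. The median log FC of the list was 0.13, against 0.01 for all probes. Those higher were Egr1 (log FC 4.34 ± 0.47, a zinc finger transcription factor), Zfp36 (2.84 ± 0.39, the mRNA decay factor tristetraprolin), Dusp1 (2.68 ± 0.26, a MAP kinase phosphatase), Fos (2.40 ± 0.30, an AP-1 subunit), Phlda1 (2.21 ± 0.14, a pleckstrin homology domain protein) and Csrnp1 (1.69 ± 0.18, a nuclear protein; SE in each case), with limma adjusted p-values between 7.45e-05 and 0.0192. The Ier3 log FC of 2.48 thus lay between those of Dusp1 and Fos.

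Set against LPS alone, LPS plus hBD3 had 2 of the 32 genes pass the test as lower, Csrnp1 (log FC -1.48 ± 0.18, SE; limma, adjusted p = 0.0112) and Phlda1 (-1.38 ± 0.14, adjusted p = 0.00527), and 0 as higher, where 0.0545% of all probes passed as lower. The list's median log FC was -0.13, beside -0.00469 for all probes. Egr1 (-2.54 ± 0.47, adjusted p = 0.246), Zfp36 (-1.90 ± 0.39, adjusted p = 0.437) and Dusp1 (-1.55 ± 0.26, adjusted p = 0.136) had lower values than Csrnp1 but did not pass. With the replicate number as a block all 3 passed, with adjusted p-values of 0.000119 for Egr1, 0.000391 for Zfp36 and 0.00321 for Dusp1. The log2 signal of Phlda1 was 7.96, 7.66 and 7.83 with LPS plus hBD3, 9.35, 9.03 and 9.20 with LPS, 7.37, 7.11 and 6.89 with hBD3, and 7.21, 6.84 and 6.89 in untreated cells. As for Ier3, the LPS arrays of Phlda1 were above all others and the LPS plus hBD3 arrays were above those without LPS. The share of the LPS log FC left with hBD3 was 37.7% for Phlda1, 40.4% for Fos, 41.5% for Egr1, 42.3% for Dusp1, 33.3% for Zfp36 and 12.1% for Csrnp1, beside 35.7% for Ier3. Fos did not pass in LPS plus hBD3 against LPS (log FC -1.43 ± 0.30, SE, limma adjusted p = 0.465, and 0.147 with the block). All these shares use the same untreated arrays.

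No gene of the list passed in LPS plus hBD3 against untreated cells, in hBD3 against untreated cells, in LPS plus hBD3 against hBD3 or in the difference between the hBD3 effects. With the replicate block 12 genes were higher in LPS against untreated cells, where 0.276% of probes were. These were the 6 above and Junb (an AP-1 subunit), Egr2, Klf2 (a zinc finger factor), Plk2 (a polo-like kinase), Gadd45b (a stress response gene) and Maff (a small MAF factor, detected on 4 arrays), with log FC between 0.44 and 1.47. The block also gave 7 genes lower in LPS plus hBD3 against LPS (0.132% of probes), namely Egr1, Zfp36, Dusp1, Csrnp1, Phlda1, Junb and Plk2. The same 7 were lower in the difference between the hBD3 effects, and 2 (Egr1 and Phlda1) were higher in LPS plus hBD3 against untreated cells (0.00778% of probes). Leaving out LPS replicate 1 was an alternative chosen after seeing the data. Counts without it were 6 higher in LPS against untreated cells, 3 lower in LPS plus hBD3 against LPS and 2 lower in the difference. Calls over all probes, in either direction, were then 44, 29 and 17, in place of 27, 14 and 0 with all arrays.

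Over the 12 arrays the genes whose log2 signal was most like that of Ier3, among 10123 probes detected on at least 3 arrays, were Phlda1 (Pearson r 0.981), Cxcl1, a neutrophil chemokine (0.979), Socs3, an inhibitor of cytokine receptor signalling (0.970), Nfkbid, a nuclear IκB protein (0.963), and Cd69, an early activation marker (0.956). The arrays fall into treatment groups, so these values describe a shared group pattern over 12 points. All 5 passed the test as higher in LPS against untreated cells, with log FC between 2.08 and 4.75, as did 0.105% of all probes. They also passed as lower in LPS plus hBD3 against LPS, with log FC between -2.61 and -1.38, as did 0.0545%. Since they were picked for their likeness to Ier3 on these same arrays, these calls largely follow from the choice and are no separate evidence. The genes closest to Ier2 were Rbm18 (0.880), Irgq (0.875), Eif4enif1 (0.868), Ecpas (0.850) and Swap70 (0.842), and those closest to Ier5 were Ociad1 (0.835), Rab13 (0.791), Cul1 (0.785), Ncbp3 (0.780) and Drd1 (0.779). None of these 10 passed the test in either comparison, and both probes they were matched to were under the detection floor on each array. Closest to Ier5l were Suds3 (0.916), Sesn1 (0.883), Col1a1 (0.861), Fam89b (0.855) and Cyhr1 (0.851), with 0 calls among them. Between members r was 0.634 for Ier2 and Ier3, 0.647 for Ier2 and Ier5 and 0.291 for Ier3 and Ier5.

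None of the measured partners of the IER proteins passed the test in any comparison, with or without the replicate block. Of 6 listed IER3 partners 4 were measured (Ppp2r5a and Ppp2r5c, which encode B56 subunits of PP2A, Mcl1, a survival factor, and Atpif1, the mitochondrial ATPase inhibitor), and the ERK kinase genes were not analysed here. The log FC farthest from 0 in LPS against untreated cells was that of Ppp2r5a, at -0.75 ± 0.39 (SE; limma, adjusted p = 0.9997). Its log2 signal with LPS was 7.41 in replicate 1, 8.94 in replicate 2 and 9.31 in replicate 3, against a mean of 9.30 in untreated cells, and without LPS replicate 1 the log FC was -0.17.

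Of 7 listed partners of IER5 5 were measured, all of them PP2A subunits (Ppp2ca, Ppp2cb, Ppp2r1a, Ppp2r2d and Ppp2r5c), and Hsf1 and Ppp2r2a were not analysed here. Ppp2r1a, a scaffold subunit, had the farthest value (-1.04 ± 0.65, adjusted p = 0.9997), which rested on LPS replicate 1. Its log2 signal was 7.21 on that array, 10.36 and 10.34 on the other LPS arrays and 10.34 on average in untreated cells, and without LPS replicate 1 the log FC was 0.01. Of 10 heat shock genes driven by HSF1 9 were measured, and Hspa1a, an inducible HSP70, had the farthest value (0.37 ± 0.13, adjusted p = 0.9997, and 0.31 without LPS replicate 1). The medians were -0.13 for the IER3 partners, -0.05 for the PP2A subunits and 0.04 for the heat shock genes, beside 0.01 for all probes. Without LPS replicate 1 they were -0.05, 0.01 and 0.04. The values without this array are an alternative chosen after seeing the data.

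Both Ier3 differences kept their direction under each processing choice tried. Over 21 alternatives the log FC in LPS against untreated cells had an adjusted p between 6.88e-07 and 0.0101 and passed each time. For LPS plus hBD3 against LPS it passed in 20 of 21, and with any 1 array left out the log FC lay between -1.71 and -1.51. Median scaling gave the lowest value, -1.98 ± 0.23 (SE, adjusted p = 0.0215).

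**Figure D3:**
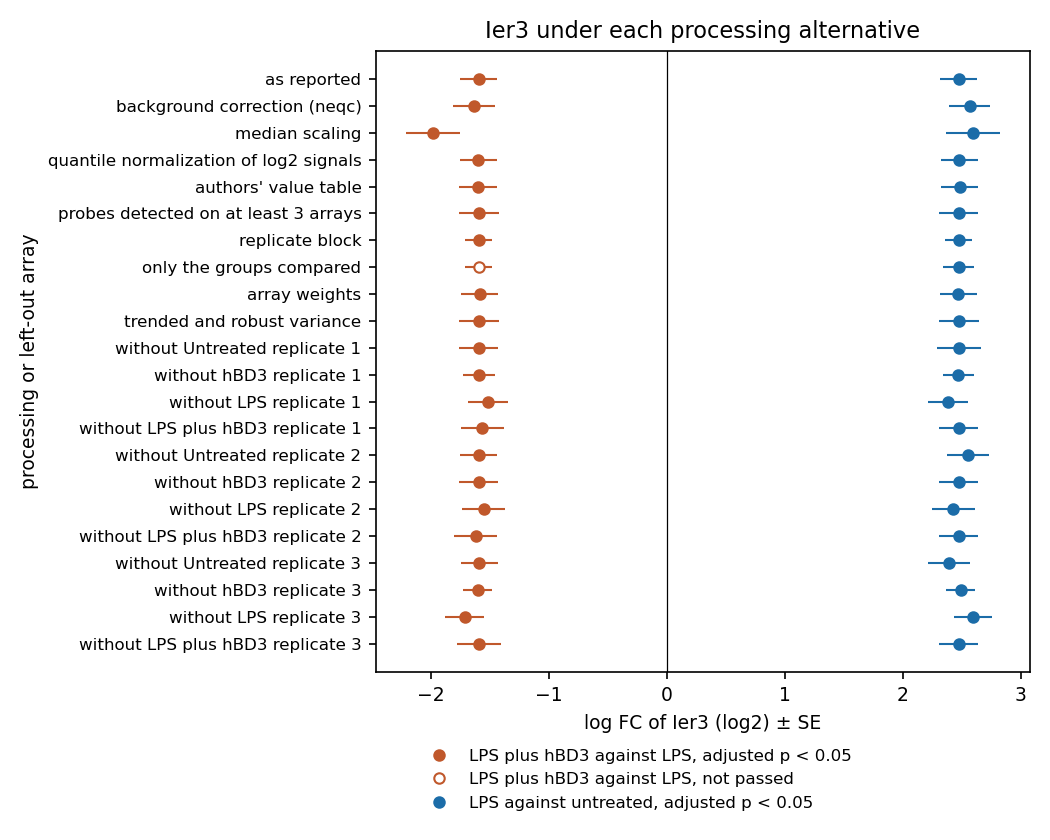
Log FC of Ier3 (x axis, log2, ± SE) for LPS plus hBD3 against LPS and for LPS against untreated cells under each processing choice or left-out array (y axis), with open circles where the adjusted p was not under 0.05. The 1 open circle is the fit of only the groups compared, at -1.59.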

How the data were processed

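RNA of 12 BMDM samples was amplified to biotinylated cRNA for single-colour arrays. The authors summarized the beads in BeadStudio and deposited signal intensities per probe, not normalized between arrays, with BeadStudio's detection p-values for each probe and array. They also deposited a table of quantile normalized intensities, which served as an alternative here. Limma, with no version, is named in the submitters' processing notes. The BeadStudio version is not given in the sources used here. The number of per-sample columns left unused was 0, and no column held a comparison by the authors.

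The intensities were quantile normalized across 12 arrays, as in the study's methods, and log2 transformed, with no background correction and no filter. In R 4.3.3, limma 3.58.1 was fitted with a mean for each of 4 groups, and p-values were adjusted by Benjamini and Hochberg over 25697 probes (threshold 0.05). All p-values are limma's unless an exact permutation test is named. The fit was also run on simulated data with independent noise on each array. That simulation held no effect of the replicate number, so it cannot show how the fit does on paired samples. Limma's p-values weigh a difference against the spread between samples within groups, estimated over all 4 groups and with help from all probes. Without the block this spread includes differences between replicate numbers. With 3 arrays per group the precision is limited. Names came from the probe table given with the series (23978 probes with 1 symbol, 0 with several, 1719 with none). For a listed gene with several probes the brightest was used. The members, gene lists and motifs were chosen with earlier results of these data known.

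Genes were named by a rule: the members and Ier5l, the 5 genes most correlated with each, every listed immediate early gene that passed a test and the 4 farthest from 0 in either comparison with LPS alone, and the partner with the largest absolute log FC. Arrays with the same replicate number deviated together from their group means (r 0.150 to 0.772 in 18 of 18 pairs over 7893 probes detected on all arrays). For other numbers r was -0.657 to 0.296. The labels do not say what arrays of equal number share. The main fit holds group means only, so its SE, intervals and p-values leave this pairing out. A second fit took the replicate number as a block. For the members and the immediate early genes the blocked value is given where it changes a call, as a p-value or as a count with the genes' names. Other alternatives were scaling each array by its median, neqc background correction (offset 16), the authors' table, quantile normalization after the log2 step, detected probes only, only the groups compared, array weights, trended and robust variances, and leaving out each array.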

Additional observations from a re-analysis of the deposited data

Results flagged for a closer look

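For Ier3 the effect of hBD3 with LPS present differed from its effect without LPS by -1.56 ± 0.22 on the log2 scale (SE; limma). The difference was singled out because it passed the test with the replicate number as a block (adjusted p = 0.00550), while the adjusted p was 0.104 without the block.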

How the results depend on the processing

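Ier3 kept its call in LPS against untreated cells under all 21 alternatives and in LPS plus hBD3 against LPS under 20, the exception being the fit of only these groups (-1.59, adjusted p = 0.0762). Its hBD3 difference against untreated cells, not called in any fit, turned sign with median scaling (0.0138), and lay between -0.18 and 0.15 with 1 array left out. The Ier3 difference between the hBD3 effects passed with detected probes only (-1.56, adjusted p = 0.0498), the replicate block (-1.56, adjusted p = 0.00550), array weights (-1.53, adjusted p = 0.0495) and trended variances (-1.56, adjusted p = 0.0211), and had adjusted p-values of 0.0622 to 0.448 with 1 array left out. Ier2 and Ier5 passed under no alternative. The replicate block changed no other call of a member, and its counts of immediate early genes stand beside the list.

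Over all probes, calls in LPS against untreated cells were 27, and 72 with the replicate block, 6 with only the groups compared, 44 with array weights and 19 to 44 with 1 array left out (44 without LPS replicate 1). In LPS plus hBD3 against LPS they were 14, and 42 with the block, 9 with neqc, 0 with only the groups compared and 9 to 29 with 1 array left out (29 if LPS replicate 1 was dropped, and 9 for replicates 2 and 3 of LPS and the third array of LPS plus hBD3). In LPS plus hBD3 against untreated cells the block gave 2 in place of 0. For the difference between the hBD3 effects the counts were 0, and 5 with median scaling, 7 with detected probes, 20 with the block, 12 with array weights, 8 with trended variances and 0 to 17 with 1 array left out (17 without LPS replicate 1, 1 without LPS plus hBD3 replicate 3). The cause was not tested.

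Values of Ier5l that were not called turned sign in hBD3 against untreated cells with neqc (0.00684), median scaling (0.0598) and 1 array left out (-0.21 to 0.13), in LPS plus hBD3 against hBD3 with median scaling (-0.0570), and in LPS plus hBD3 against untreated cells with 1 array left out (-0.0213 to 0.323). The median of the immediate early list in hBD3 against untreated cells was 0.0471 with median scaling, against -0.00322. Without LPS replicate 1, in LPS against untreated cells, the log FC of Ppp2r1a was 0.0120 in place of -1.04 and the median of the PP2A subunits 0.0128 in place of -0.0497. Signals under the detection floor limit what the Ier2 and Ier5 probes can show.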

Other observations

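The genes beside the members in RefSeq's order of protein-coding genes were looked up after the members' values had been seen. Flot1, which follows Ier3 and encodes the membrane protein flotillin-1, was detected on 12 arrays and had a log FC of 0.12 ± 0.20 in LPS against untreated cells and -0.04 ± 0.20 in LPS plus hBD3 against LPS (SE; limma, adjusted p = 0.9997 and 0.99998). Ddr1, on the other side of Ier3, encodes a collagen receptor and was detected on 0 arrays. Beside Ier2, the calcium channel gene Cacna1a had a log FC of -0.10 ± 0.22 and Nacc1 one of 0.06 ± 0.22 in LPS against untreated cells, both detected on 12 arrays and neither called. Beside Ier5, Mr1 was detected on 0 arrays, and Cacna1e had no probe in the table used here.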
